A study of Homo sapiens with 6 samples.

Results

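Expression of 31 genes of cholesterol and fatty acid synthesis was compared between Hep G2 cells that stably overexpressed EFTUD2 and control Hep G2 cells. There were 3 libraries in each group. The 31 genes were looked up by symbol among the 23524 rows of the deposited expression table, and each was found. They comprised 18 enzymes of sterol synthesis, 8 enzymes of fatty acid synthesis, and 5 regulators and carriers (SREBF1, SREBF2, SCAP, INSIG1 and STARD4). Hep G2 is a line grown from a human liver tumor, and EFTUD2 encodes a GTPase of the spliceosome. The paper describes a vector lentivirus for the control cells of its overexpression work and puromycin selection for its stable lines. Its RNA sequencing methods call the comparison cells only control. The inserted EFTUD2 gene was the labelled difference between the groups. Whether each line was 1 clone or a pool, and whether the 3 libraries of a group came from separate cultures, is not given in the sources used here. The p-values below therefore measure the spread between these libraries, which may be technical. Values are FPKM (fragments per kilobase of transcript, scaled to the library's mapped fragments), which are corrected for transcript length, so that levels of different genes can be set side by side.

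Cells make cholesterol from acetyl-CoA through mevalonate, farnesyl diphosphate, squalene and lanosterol, and make fatty acids from the same acetyl-CoA through malonyl-CoA. Both routes are under the control of the SREBP transcription factors, SREBP-1 from SREBF1 and SREBP-2 from SREBF2, which are held in the endoplasmic reticulum by SCAP and an INSIG protein while sterols are plentiful and are carried by SCAP to the Golgi for cleavage when sterols are scarce. The liver is a main site of both syntheses.

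SREBPs bind the sterol regulatory element, often beside a CCAAT box, the site of the factor NF-Y. RefSeq promoters of GRCh38.p14 were matched by Entrez identifier for 27 of the 31 genes. They reached from 250 bases before the transcript start to 50 bases after it. FASN, FDFT1, ACAT2 and SQLE had no entry. The letters TCACNCCAC (or GTGGNGTGA on the other strand) stood in the promoter of 1 of the 27 genes, SREBF2, which is 3.7%, and in 1.4% of the promoters of 11092 tested genes. The letters CCAAT (or ATTGG) stood in 21 of the 27, which is 77.8%, and in 43.0% of the 11092. A match is a run of letters and not a measured binding site. A missing match covers only these letters and this window, and other forms of the element were not searched. The stretches below, each of 130 bases and written 5′ to 3′ in the direction of transcription, are shown for the SREBP genes themselves and for members whose levels the results below turn on. Capitals mark matches to either set of letters, and in the SREBF2 stretch the element starts 133 bases and the CCAAT box 106 bases before the transcript start.
SREBF2, chr22:41832949-41833078, plus strand: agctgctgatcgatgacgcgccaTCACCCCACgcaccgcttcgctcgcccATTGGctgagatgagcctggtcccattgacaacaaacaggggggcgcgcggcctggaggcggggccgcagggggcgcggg
HMGCS1, chr5:43313513-43313642, minus strand: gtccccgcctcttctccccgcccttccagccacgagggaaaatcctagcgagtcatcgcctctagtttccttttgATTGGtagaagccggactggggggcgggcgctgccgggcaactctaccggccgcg
MSMO1, chr4:165327493-165327622, plus strand: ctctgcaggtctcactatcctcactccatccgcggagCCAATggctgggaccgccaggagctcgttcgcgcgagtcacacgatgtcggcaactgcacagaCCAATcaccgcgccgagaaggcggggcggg
INSIG1, chr7:155297646-155297775, plus strand: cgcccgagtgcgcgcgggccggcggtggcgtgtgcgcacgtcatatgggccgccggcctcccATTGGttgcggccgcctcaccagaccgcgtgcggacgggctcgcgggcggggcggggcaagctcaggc
SREBF1, chr17:17837003-17837132, minus strand: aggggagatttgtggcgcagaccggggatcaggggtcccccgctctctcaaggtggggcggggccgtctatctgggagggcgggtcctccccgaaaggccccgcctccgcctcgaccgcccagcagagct
The SREBF1 stretch held neither set of letters. The MSMO1 stretch held 2 CCAAT boxes, and the HMGCS1 and INSIG1 stretches held 1 each.

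The inserted gene was measured as labelled. EFTUD2 was at 41.1, 54.4 and 46.3 FPKM in control replicates 1 to 3 against 106.6, 102.9 and 109.5 FPKM in EFTUD2 replicates 1 to 3. Its log2 fold change was 1.16 (SE 0.12, adjusted p = 0.131, limma), and the groups did not overlap. At an adjusted p under 0.05 limma called 0 of 17222 genes, and 2118 genes (12.3%) had an unadjusted p under 0.05. EFTUD2 replicate 3 stood apart from the other libraries. Its level lay below both other EFTUD2 replicates for 57.9% of genes, and the SD of its difference from their mean was 0.54 on the log2 scale over all genes. The same SD within the group was 0.183 to 0.374 for the other libraries. Scaling by the median of ratios gave EFTUD2 replicate 3 a factor of 0.882, against 1.003 to 1.069 for the others. The 57.9% is from FPKM without that scaling. The 10 hepatocyte markers were above 0 in every library, with sums of 5607 to 13360 FPKM. The 8 genes of a mesenchymal and basal list summed to 5.29 to 7.39 FPKM in the controls and to 147.8, 324.2 and 17.8 FPKM in EFTUD2 replicates 1 to 3. That list held KRT7, a keratin of simple epithelium, and LDHB, a lactate dehydrogenase subunit, which are not specific to mesenchymal or basal cells. In EFTUD2 replicate 2 they were at 61.2 and 53.3 FPKM. Of the 8 genes, KRT5 was listed at 0 in every library and the groups overlapped for AXL and KRT7. Fibroblast markers summed to 0.51 to 1.58 FPKM in the controls and 2.33 to 4.82 FPKM in the EFTUD2 libraries, with COL1A2 listed at 0 throughout. The groups overlapped or touched for COL1A1, LUM, DCN and PDGFRB and were apart for COL3A1. In EFTUD2 replicate 3, PDGFRB made up 2.07 of the 2.33 FPKM. Macrophage markers reached 2.51 FPKM at most, nearly all of it CD14, with TYROBP listed at 0 in every library. CD14 was at 0.6 to 1.03 FPKM in the controls against 1.41 to 2.51 FPKM in the EFTUD2 libraries, without overlap. Endothelial markers summed to 1.09 to 1.60 FPKM over all 6 libraries. Within that sum CDH5 and VWF were higher and PECAM1 lower in the EFTUD2 group without overlap, as were 7.92% and 19.4% of all genes. None of these markers exceeded 1.19 FPKM in any library.

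Most sterol enzymes had a slightly higher mean in the EFTUD2 group, the fatty acid enzymes were divided, and none of the 31 synthesis genes passed the adjusted test. With 31 of 31 genes tested, 0 had an adjusted p under 0.05 (0% of all genes tested did), and 2 had an unadjusted p under 0.05, INSIG1 and SQLE. That is 6.45% of the members, against 12.3% of all genes. The mean of log2(FPKM + 1) was higher in the EFTUD2 group for 20 members and lower for 11, with a median log2 fold change of 0.14. That median was 0.0822 without control replicate 3, 0.22 without control replicate 1 and 0.23 without EFTUD2 replicate 1. Over all genes tested 37.3% were higher, and the median was -0.07. When the libraries were rescaled by the median of ratios, 25 of 31 members and 50.3% of all genes were higher. All 3 EFTUD2 values lay above all 3 control values for 3 members (INSIG1, SQLE and FDPS), or 9.68%, near the 7.92% of all genes for which this held. The reverse order held for 0 members and for 19.4% of all genes. INSIG1 entered these counts only through its EFTUD2 values, since its control mean lay below the 0.1 FPKM needed for testing.

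**Figure D1:**
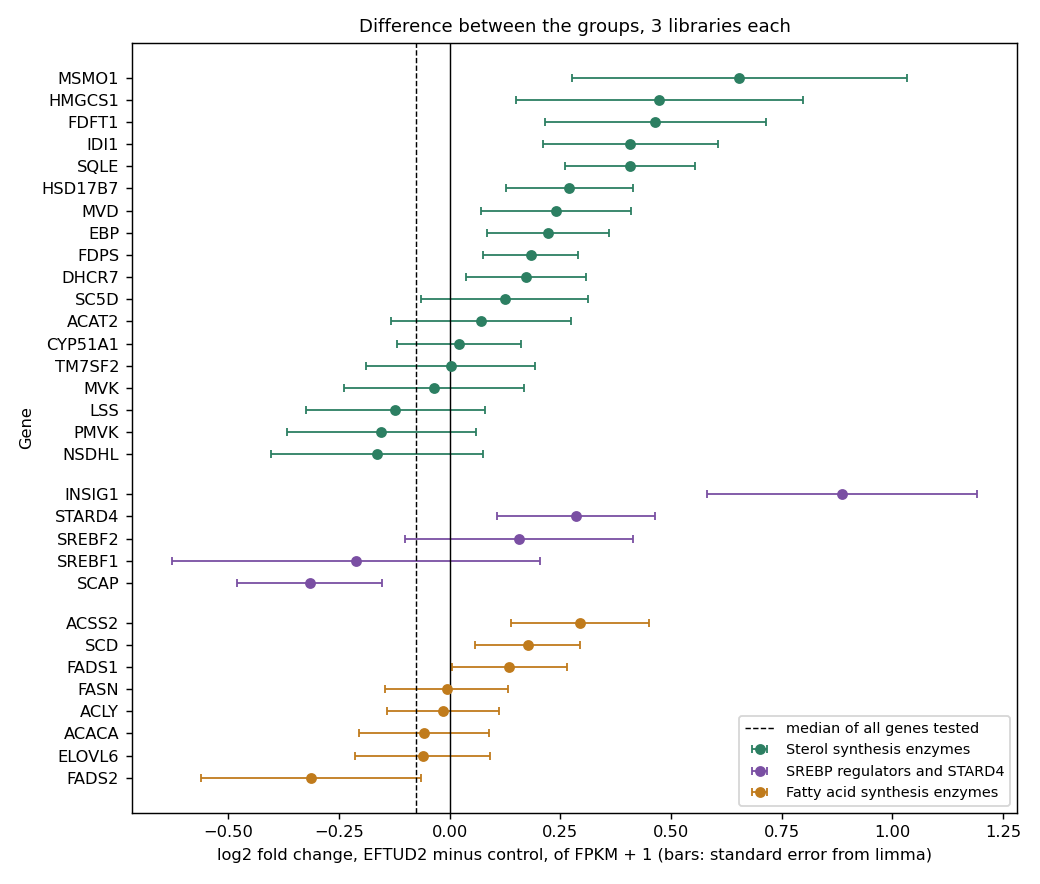
Log2 fold change of FPKM + 1, EFTUD2 minus control, for each of the 31 genes (points, n = 3 libraries per group) with its standard error from limma (bars), by branch, and the median of all genes tested (dashed line, -0.07). Of the 18 sterol enzymes 14 lie to the right of 0, while the 8 fatty acid enzymes spread from -0.31 for FADS2 to 0.29 for ACSS2.

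By branch, 14 of the 18 sterol enzymes were higher, with a median log2 fold change of 0.18. Among the regulators and STARD4, 3 of 5 were higher (median 0.16). Among the fatty acid enzymes, 3 of 8 were higher (median -0.01). With median-of-ratios scaling the counts were 15 of 18, 3 of 5 and 7 of 8, and with quantile normalization 16, 3 and 6. The direction in the fatty acid branch thus depended on the scaling. Without single libraries the sterol count ran from 11 (without EFTUD2 replicate 2) to 17 (without EFTUD2 replicate 3). It was 12 without control replicate 2 and 12 without control replicate 3. The 14 higher sterol enzymes included TM7SF2 and CYP51A1, with log2 fold changes of only 0.0023 and 0.0213. The plot of fold changes shows these values by gene. The members together took 0.361%, 0.311% and 0.294% of the summed FPKM in control replicates 1 to 3 and 0.326%, 0.373% and 0.372% in EFTUD2 replicates 1 to 3. The share of control replicate 1 lay above that of EFTUD2 replicate 1, so the groups overlapped.

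Among the regulators, INSIG1, which encodes the anchor that keeps SCAP in the endoplasmic reticulum, had the smallest p of the members. It was at 0.03, 0.01 and 0.03 FPKM in control replicates 1 to 3 against 0.76, 2.10 and 0.24 FPKM in EFTUD2 replicates 1 to 3. It was thus nearly undetected in the controls and low in the EFTUD2 libraries, the lowest of the 31 members in control level, and the groups did not overlap. The table gives no read counts against which control values so near 0 could be checked. With a control mean of 0.0233 FPKM, INSIG1 passed the filter at a mean of 0.1 FPKM only through its EFTUD2 libraries. Its p-value and its lack of overlap thus belong to a gene kept through the group where it is high. The log2 fold change of INSIG1 on the FPKM + 1 scale was 0.89 (SE 0.30, unadjusted p = 0.0235, adjusted p = 0.402, limma). The exact two-sided permutation test gave p = 0.1, the smallest that 3 against 3 libraries allow. The fold change of so low a gene depends on the pseudocount and was 2.81 with a pseudocount of 0.1 FPKM. With a pseudocount of 1 FPKM it was 0.53 without EFTUD2 replicate 2 and 1.19 without EFTUD2 replicate 3. With array weights estimated gene by gene the adjusted p was 0.0302, and over all alternatives it ran from 0.0302 to 0.681.

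INSIG2, a gene outside the 31 that encodes the related anchor and is shown beside INSIG1 although its groups overlapped, was at 38.9, 29.3 and 42.0 FPKM in the controls against 42.4, 32.4 and 49.0 FPKM in the EFTUD2 libraries. In control level INSIG2 thus stood far above INSIG1 in these cells. The groups overlapped for INSIG2, with a log2 fold change of 0.16 (adjusted p = 0.694, limma). The order of INSIG1 within the EFTUD2 group, with replicate 2 highest and replicate 3 lowest, was also that of several genes of the mesenchymal and basal list. AXL and KRT7 of that list had this order too, but their groups overlapped, and KRT5 was at 0 throughout. AXL in EFTUD2 replicate 3 (1.42 FPKM) lay below every control. Of all genes, 42.6% were highest in replicate 2 and 57.9% lowest in replicate 3 within the EFTUD2 group. Other members, such as SREBF1 and LSS, had the same order. VIM, which encodes the filament protein vimentin, was at 0.06 to 0.12 FPKM in the controls against 23.2, 59.6 and 2.87 FPKM in EFTUD2 replicates 1 to 3. LDHB, a lactate dehydrogenase subunit, was at 0.11 to 0.13 FPKM against 25.0, 53.3 and 2.67 FPKM. Relative to EFTUD2 replicate 2, replicate 1 held 0.362 of the INSIG1 level, 0.390 of the VIM level and 0.469 of the LDHB level. Replicate 3 held 0.114 of the INSIG1 level, 0.0482 of the VIM level and 0.0501 of the LDHB level. The part of VIM and LDHB in the INSIG1 result was not tested. In bulk RNA a change in the number of cells of a type and a change of RNA per cell cannot be told apart.

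**Figure D2:**
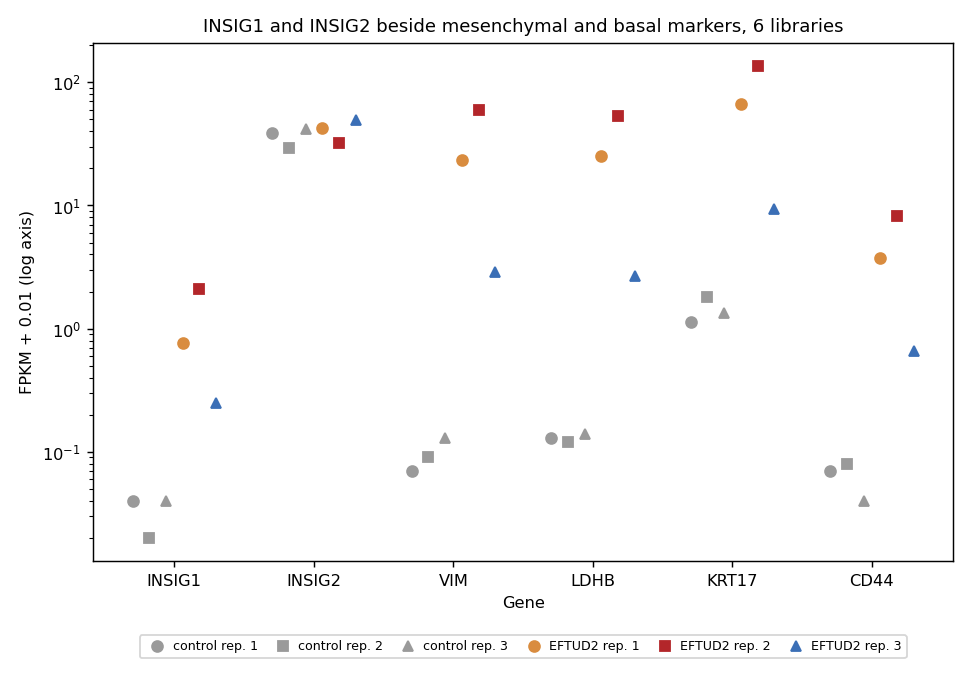
FPKM + 0.01 (log axis) of INSIG1, INSIG2, VIM, LDHB, KRT17 and CD44 in each of the 6 libraries (points). The last 4 were picked from the 8 genes of the mesenchymal and basal list. INSIG1 and these 4 genes are lowest in the controls and in the order replicate 2, replicate 1, replicate 3 within the EFTUD2 group, while INSIG2 lies between 29.3 and 49.0 FPKM in all 6. Of the listed genes not shown, KRT14 had this pattern, the groups overlapped for AXL and KRT7, and KRT5 was at 0 throughout.

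SCAP, the sterol sensor that escorts the SREBPs, was at 44.1, 29.6 and 32.4 FPKM in the controls against 26.5, 26.6 and 30.5 FPKM in the EFTUD2 libraries. EFTUD2 replicates 1 and 2 lay below every control, and replicate 3 lay between the controls. Its log2 fold change was -0.32 (SE 0.16, adjusted p = 0.427, limma), and without control replicate 1, the highest of the 6 values, it was -0.15.

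The SREBP genes themselves differed more within the EFTUD2 group than between the groups. SREBF1 was at 22.2, 19.1 and 19.1 FPKM in the controls against 20.9, 29.5 and 8.03 FPKM in the EFTUD2 libraries. The highest and the lowest SREBF1 value were thus both in the EFTUD2 group, in replicates 2 and 3. SREBF1 had a log2 fold change of -0.21 (SE 0.42, adjusted p = 0.810, limma), which turned to 0.29 without EFTUD2 replicate 3. SREBF2 was at 61.0, 37.0 and 40.5 FPKM in the controls against 41.9, 43.7 and 69.7 FPKM in the EFTUD2 libraries. Here EFTUD2 replicate 3 and control replicate 1 were the high libraries, and the other 4 lay between 37.0 and 43.7 FPKM. Its log2 fold change of 0.16 (SE 0.26, adjusted p = 0.768, limma) turned to -0.07 without EFTUD2 replicate 3. In that library, SREBF1 was 1.52 lower and SREBF2 0.69 higher on the log2 scale than the mean of the other EFTUD2 replicates. SREBF1 shares exon positions with RAI1 on the opposite strand, and whether the counting used strand is not given in the sources used here.

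STARD4, a carrier that moves cholesterol between membranes, was at 11.1, 10.1 and 9.81 FPKM in the controls against 10.5, 11.9 and 16.8 FPKM in the EFTUD2 libraries. Replicates 2 and 3 of the EFTUD2 group lay above every control and replicate 1 between them (log2 fold change 0.29, SE 0.18, adjusted p = 0.468, limma).

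In the sterol branch, the enzymes that build mevalonate came first. ACAT2, which joins acetyl-CoA units, had control values of 62.6 to 81.7 FPKM and EFTUD2 values of 56.4 to 94.8 FPKM (log2 fold change 0.07). HMGCS1, the cytosolic HMG-CoA synthase, is given by library although its p was not among the 12 smallest, and was chosen for this after its values were seen. It was at 52.4, 37.6 and 29.8 FPKM in the controls against 39.0, 48.0 and 86.1 FPKM in the EFTUD2 libraries. EFTUD2 replicate 3 was the highest library, and the other EFTUD2 replicates lay within the control range. The log2 fold change of 0.47 (SE 0.32, adjusted p = 0.498, limma) was 0.15 without EFTUD2 replicate 3.

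The enzymes that turn mevalonate into the isoprene units differed in direction. MVK and PMVK, the kinases that phosphorylate mevalonate, had log2 fold changes of -0.04 and -0.15. Their EFTUD2 values ran from 10.6 to 18.2 FPKM for MVK and from 4.62 to 8.72 FPKM for PMVK, both wider than the control ranges of 12.2 to 15.9 and 7.06 to 8.21 FPKM. MVD, the decarboxylase that follows them, ran from 31.7 to 46.1 FPKM in the controls and from 39.0 to 49.1 FPKM in the EFTUD2 libraries (log2 fold change 0.24, adjusted p = 0.508, limma). IDI1, the isomerase of the isoprene unit, was at 28.3, 24.8 and 19.7 FPKM in the controls against 25.9, 32.1 and 40.2 FPKM in the EFTUD2 libraries. EFTUD2 replicates 2 and 3 lay above every control, and replicate 1 lay between them (log2 fold change 0.41, SE 0.20, adjusted p = 0.413, limma).

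FDPS, the synthase of farnesyl diphosphate, was 1 of the 3 members without overlap. It was at 94.7, 91.6 and 82.7 FPKM in the controls against 94.9, 109.7 and 101.3 FPKM in the EFTUD2 libraries. The lowest EFTUD2 library (94.92 FPKM) was barely above the highest control (94.69 FPKM), a gap far smaller than the spread within either group. The log2 fold change was 0.18 (SE 0.11, adjusted p = 0.454, limma). The annotation names 8 pseudogenes of FDPS (FDPSP1 to FDPSP8), and how reads shared with them were assigned is not given in the sources used here.

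FDFT1, the squalene synthase that commits farnesyl diphosphate to sterols, was at 117.0, 94.5 and 90.9 FPKM in the controls against 108.0, 120.5 and 204.8 FPKM in the EFTUD2 libraries. EFTUD2 replicate 3 was far above the rest, replicate 2 just above the highest control and replicate 1 below it. The log2 fold change of 0.46 (SE 0.25, adjusted p = 0.435, limma) was 0.19 without EFTUD2 replicate 3.

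SQLE, the epoxidase that oxidizes squalene and a slow step of the route, had the smallest p of the members but for INSIG1. It was at 47.5, 42.9 and 40.1 FPKM in the controls against 50.4, 55.0 and 70.1 FPKM in the EFTUD2 libraries. All 3 EFTUD2 libraries lay above all 3 controls, with means of 58.5 ± 10.3 against 43.5 ± 3.73 FPKM (SD, n = 3 each), a ratio of 1.34. The log2 fold change was 0.41 (SE 0.15, unadjusted p = 0.0287, adjusted p = 0.402, limma), and the exact permutation test gave p = 0.1. Without EFTUD2 replicate 3 it was 0.27. The adjusted p was 0.0484 with gene-by-gene array weights and ran from 0.0484 to 0.681 over all alternatives.

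After squalene, LSS, the cyclase that makes lanosterol, had control values of 22.4 to 26.7 FPKM and EFTUD2 values of 16.7 to 29.5 FPKM (log2 fold change -0.12). CYP51A1, the lanosterol demethylase, and TM7SF2, a sterol reductase, had log2 fold changes of 0.02 and 0.00, the latter the largest p of the 31 members. CYP51A1 has 3 named pseudogenes, and TM7SF2 shares exon positions with VPS51.

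MSMO1, the methylsterol oxidase of the demethylation steps, had the highest fold change of the sterol enzymes and rested on 1 library. It was at 53.5, 49.6 and 42.5 FPKM in the controls against 52.1, 58.3 and 147.5 FPKM in the EFTUD2 libraries. EFTUD2 replicate 3 held 2.53 times the level of replicate 2, while replicate 1 lay within the controls. The log2 fold change of 0.65 (SE 0.38, adjusted p = 0.450, limma) was 0.19 without EFTUD2 replicate 3. NSDHL and HSD17B7 act in the same demethylation complex. NSDHL, chosen after its values were seen, was at 17.0, 20.2 and 17.5 FPKM in the controls against 18.4, 21.1 and 10.7 FPKM in the EFTUD2 libraries. It was thus lowest in the library in which MSMO1 was highest. HSD17B7 was at 15.6, 13.2 and 13.1 FPKM in the controls against 15.1, 16.2 and 20.1 FPKM in the EFTUD2 libraries (log2 fold change 0.27, SE 0.14, adjusted p = 0.432, limma). EFTUD2 replicate 3 was the highest and replicate 1 lay within the controls, and HSD17B7 has 2 named pseudogenes.

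The last enzymes of the route showed smaller differences. EBP, the sterol isomerase, was at 42.1, 51.3 and 45.8 FPKM in the controls against 49.2, 63.6 and 50.6 FPKM in the EFTUD2 libraries. Only EFTUD2 replicate 2 lay above every control (log2 fold change 0.22, SE 0.14, adjusted p = 0.465, limma). SC5D, a sterol desaturase, had a log2 fold change of 0.12, which turned to -0.04 without EFTUD2 replicate 3. DHCR7, the reductase that yields cholesterol, had control values of 36.5 to 41.3 FPKM and EFTUD2 values of 36.8 to 49.7 FPKM (log2 fold change 0.17).

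In the fatty acid branch, ACLY, ACACA and FASN form the core of the route from citrate to palmitate. ACLY, which releases acetyl-CoA from citrate, had a log2 fold change of -0.01, ACACA, which makes malonyl-CoA, one of -0.06, and FASN, the synthase, one of -0.01. All 3 had adjusted p of 0.855 or more (limma), with 0.855 for ACACA, 0.958 for ACLY and 0.984 for FASN. FASN was the second member by control level, at 121.8 to 138.1 FPKM in the controls and 111.0 to 151.2 FPKM in the EFTUD2 libraries. ACSS2, which makes acetyl-CoA from acetate, had the highest fold change of the branch. It was at 19.7, 16.4 and 14.8 FPKM in the controls against 17.7, 21.9 and 23.5 FPKM in the EFTUD2 libraries. EFTUD2 replicates 2 and 3 lay above every control and replicate 1 between them (log2 fold change 0.29, SE 0.16, adjusted p = 0.432, limma).

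SCD, the desaturase that makes monounsaturated fatty acids, was the most abundant member. It was at 243.2, 207.8 and 213.5 FPKM in the controls against 233.6, 273.0 and 244.8 FPKM in the EFTUD2 libraries. EFTUD2 replicate 2 was the highest, and control replicate 1 lay between EFTUD2 replicates 1 and 3 (log2 fold change 0.18, SE 0.12, adjusted p = 0.492, limma). SCD has 1 named pseudogene. ELOVL6, the elongase of palmitate, had a log2 fold change of -0.06. Of the desaturases of polyunsaturated fatty acids, FADS1 had a log2 fold change of 0.14 and FADS2 one of -0.31 (adjusted p = 0.614 and 0.548, limma). FADS2, chosen after its values were seen, was at 27.0, 19.7 and 20.9 FPKM in the controls against 19.96, 23.3 and 12.03 FPKM in the EFTUD2 libraries. EFTUD2 replicate 3 was the lowest FADS2 library, and without it the log2 fold change was -0.05. FADS1 and FADS2 share exon positions on opposite strands, FADS2 also shares some with FEN1, and FADS2 has 1 named pseudogene. In the sterol branch, ACAT2 (with SOD2 and TCP1), MVK (with MMAB) and CYP51A1 likewise share exon positions with other coding genes.

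**Figure D3:**
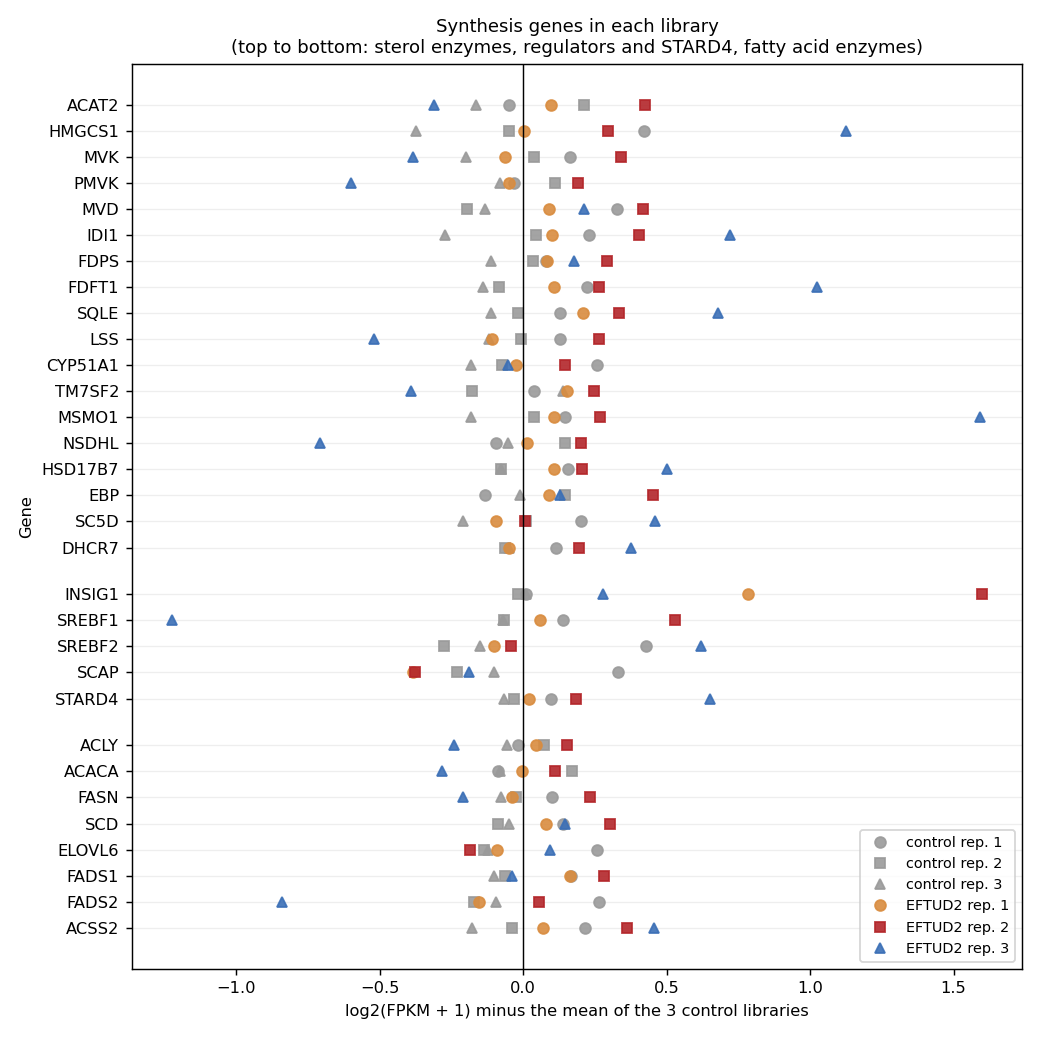
Log2(FPKM + 1) minus the mean of the 3 controls for each of the 31 genes (rows) in each of the 6 libraries (points; gray, controls; orange, red and blue, EFTUD2 replicates 1, 2 and 3). EFTUD2 replicate 2 lies to the right of replicate 1 for 30 of 31 genes, and replicate 3 is spread from 1.52 below to 1.40 above the mean of the other EFTUD2 replicates.

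Much of the variation among the 31 genes was between libraries of a group, as the plot by library shows. Relative to the control mean, the median member stood at 0.14, -0.03 and -0.10 on the log2 scale in control replicates 1 to 3 and at 0.04, 0.26 and 0.13 in EFTUD2 replicates 1 to 3. The same medians over all genes were 0.02, -0.01, -0.01, -0.05, -0.04 and -0.15. Control replicate 1 lay above both other controls for 23 members (43.5% of all genes). Without control replicate 1, 15 members had no overlap, each higher in the EFTUD2 group, against 12.9% of all genes, and 0 members passed the adjusted test. EFTUD2 replicate 2 lay above EFTUD2 replicate 1 for 30 of 31 members (54.1% of all genes), with a median ratio of 1.16, and the exception was ELOVL6. Replicate 2 lay above the highest control for 23 members (23.7% of all genes), and replicate 1 did so for 4 (20.4%). These are comparisons of single libraries, with no replicate check.

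EFTUD2 replicate 3 divided the synthesis genes. It lay above both other EFTUD2 replicates for 13 members, below both for 14 and between them for 4, against 31.3% of all genes above both and 57.9% below both. In the sterol branch 8 enzymes lay above and 7 below, among the regulators and STARD4 3 above and 2 below, and among the fatty acid enzymes 2 above and 5 below. On the log2 scale, MSMO1 was 1.40 above the mean of the other EFTUD2 replicates, HMGCS1 0.98, FDFT1 0.84 and SREBF2 0.69. SREBF1 was at -1.52, INSIG1 at -0.91, NSDHL at -0.82 and FADS2 at -0.79. Against the controls, replicate 3 lay above the highest for 14 members (25.8% of all genes) and below the lowest for 11 (51.3%). Without replicate 3, 26 of 31 members and 40.6% of all genes were higher in the EFTUD2 group, with a median of 0.15 over the members and -0.04 over all genes. The 5 lower members were then SCAP, ELOVL6, SREBF2, FADS2 and SC5D, and 4 members were higher and 1 lower without overlap, against 14.8% and 25.2% of all genes in that comparison.

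The members that were high in EFTUD2 replicate 3 were mostly those of low GC content. Spearman's rho between the GC content of the longest coding transcript and the difference of replicate 3 from the other EFTUD2 replicates was -0.54 over the 31 genes. Over 9695 other genes that averaged 3 FPKM or more it was -0.0047. Of the 13 members under 50% GC, 9 lay above both other replicates and 3 below both, with a median difference of 0.41. Of the 18 members of at least 50% GC, 4 lay above both and 11 below both, with a median of -0.32. Of the other genes in these classes, 27.1% and 29.1% lay above both, with medians of -0.22 and -0.23. The limit of 3 FPKM was set for the other genes only, and INSIG1 lay below it in every library. These values describe 1 library, the genes share its RNA and its preparation, and the part of GC content in the result was not tested. The highest and lowest members fell at the ends of this range, MSMO1 at 38.1% and SREBF1 at 64.7% GC, while INSIG1 at 46.0% and SREBF2 at 57.9% ran the other way.

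**Figure D4:**
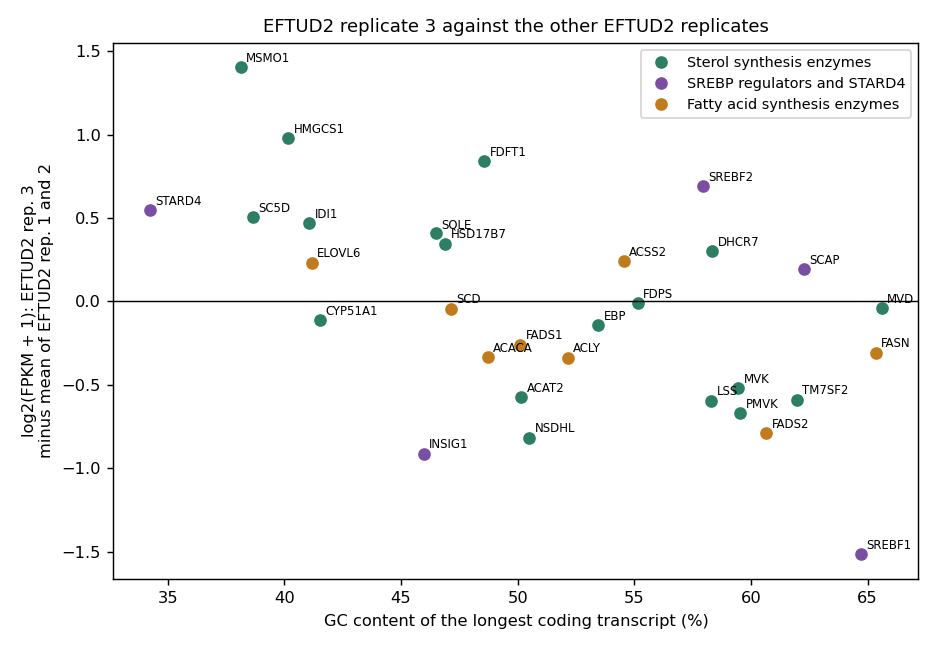
Difference of EFTUD2 replicate 3 from the mean of the other EFTUD2 replicates on the log2(FPKM + 1) scale against the GC content (%) of the longest coding transcript, for the 31 genes (points, colored by branch). Members under 50% GC lie mostly above 0, led by MSMO1 at 1.40, and members of at least 50% GC mostly below, down to SREBF1 at -1.52.

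Genes that act around the 31 were read from the same fit. Over 8 companion lists, 88 of 89 genes were tested, of which 44 were higher and 44 lower (median log2 fold change -0.0034). None passed the adjusted test and 11 had an unadjusted p under 0.05, which is 12.5% against 12.3% of all genes. Among 11 genes of SREBP processing and sterol-regulated degradation, 4 were higher and 7 lower (median -0.04), a split that turned to 8 higher and 3 lower with median-of-ratios scaling and to 6 and 5 without EFTUD2 replicate 2. PAQR3, a Golgi protein that tethers SCAP, was at 8.24, 10.8 and 10.1 FPKM in the controls against 7.75, 7.19 and 6.77 FPKM in the EFTUD2 libraries, without overlap (log2 fold change -0.37, adjusted p = 0.402, limma). All 6 genes of the isoprenoid branches toward ubiquinone and dolichol were lower (median -0.26), and 5 of 6 without control replicate 1 or with quantile normalization. For 2 of the 6 (33.3%, against 19.4% of all genes) the groups did not overlap, PDSS2 (log2 fold change -0.24), a subunit of the synthase of the ubiquinone tail, and NUS1 (-0.20), a subunit of the dolichol-making enzyme.

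Of the genes that supply NADPH and citrate to both syntheses, 9 of 9 were higher (median 0.07), but only 4 of 9 without control replicate 1 (median -0.0192) and 4 of 9 without EFTUD2 replicate 2 (median -0.0102), and 8 of 9 with quantile normalization. The groups did not overlap for 2 of them, both higher (22.2%, against 7.92% of all genes). TKT, the transketolase of the pentose phosphate pathway, was at 143.5, 149.8 and 153.2 FPKM in the controls against 180.5, 193.0 and 303.3 FPKM in the EFTUD2 libraries (log2 fold change 0.56, adjusted p = 0.402, limma). ME1, the malic enzyme, was at 0.00, 0.03 and 0.00 FPKM in the controls against 0.62, 1.27 and 0.06 FPKM in the EFTUD2 libraries. ME1 was thus at or near 0 in the controls, and it passed the filter at 0.1 FPKM only through its EFTUD2 libraries. Like INSIG1, it was highest in EFTUD2 replicate 2 and lowest in replicate 3 within its group. Of all genes, 57.9% were lowest in that replicate within the group. Among 16 genes of fatty acid elongation and activation, 8 were higher and 8 lower. The groups did not overlap for 2 higher genes (12.5%, against 7.92% of all genes) and 6 lower genes (37.5%, against 19.4%). ACSL4, an acyl-CoA synthetase for arachidonate, was at 106.1, 83.1 and 83.2 FPKM in the controls against 113.1, 108.7 and 210.6 FPKM in the EFTUD2 libraries (log2 fold change 0.60). ELOVL2, an elongase of polyunsaturated fatty acids, was at 47.6, 45.7 and 44.9 FPKM in the controls against 34.0, 27.2 and 37.2 FPKM in the EFTUD2 libraries (log2 fold change -0.49). Neither passed the adjusted test (adjusted p = 0.402 for each, limma).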

How the data were processed

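Poly-A-selected mRNA from Hep G2 cells was sequenced in 6 libraries (3 control, 3 overexpressing EFTUD2). The authors deposited 1 table of FPKM values, given to 2 decimals, with 23524 genes (18762 with Entrez identifiers and 4762 with the provider's own). The submitters' processing notes name HISAT2, Bowtie2, RSEM and the build hg38, without versions or roles. Read counts were not recovered from these FPKM values, so depth is unknown and no counting interval is given. Sums of FPKM per library were 404342 to 434542.

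The 17222 genes that averaged 0.1 FPKM or more were tested on log2(FPKM + 1) with limma 3.58.1 in R 4.3.3 (empirical Bayes with a mean trend), with no covariate, and p-values were adjusted by Benjamini-Hochberg over all of them. Log2 fold changes on this scale understate the change of low genes. Exact two-sided permutation tests over the 6 libraries cannot go below p = 0.1. The fit was tested on simulated data with 200 genes changed by 2 on the log2 scale. It recovered 85% of them with 16 false calls. Smaller changes, such as those of the members, were not simulated. The 31 members and all companion and marker lists were chosen with earlier results of these data known. Values by library are given for the members with the 12 smallest p-values and for SREBF1, SREBF2, INSIG1 and SCAP, and from each companion list for at most 2 genes with the largest changes among those without overlap. INSIG2, HMGCS1, NSDHL and FADS2 were added outside this rule after their values were seen. A result that this rule would name is not reported here. GC content, gene positions, pseudogenes and exon overlaps came from GENCODE on GRCh38, and promoter sequences from RefSeq (GRCh38.p14). In the table, 26 symbols had been turned into dates and were not used by name. Alternatives were another pseudocount, no filter and a stricter filter, median-of-ratios and quantile scaling, robust empirical Bayes, array weights estimated gene by gene, a replicate block, and leaving out each library.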

Additional observations from a re-analysis of the deposited data

How the results depend on the processing

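Across 14 alternatives, 388 of 433 values of single members kept their direction and their side of the threshold, 43 reversed (over 14 members) and 2 passed the threshold (INSIG1 and SQLE, with gene-by-gene array weights). For the other 17 members no alternative reversed the direction. The number of all genes called went from 0 to 1355 with gene-by-gene array weights and ran from 0 to 167 when single libraries were left out (167 without EFTUD2 replicate 3). Gene-by-gene array weights called 2 members, beside the 1355 of 17222 genes. The number of members at an unadjusted p under 0.05 was 2, against 12.3% of all genes. It became 1 with a filter at a mean of 1 FPKM (13.3% of all genes), 5 with median-of-ratios scaling (11.4%) and 5 with quantile normalization (12.4%). With array weights it was 10 (27.5%), with the replicate block 1 (11.8%), and without single libraries 0 to 5 (6.34% to 16.8%). The number without overlap was 3, and became 8 with median-of-ratios scaling, 5 with quantile normalization (each higher in the EFTUD2 group, as were 11.9% and 9.48% of all genes), and 3 to 15 without single libraries (15 without control replicate 1 and 11 without EFTUD2 replicate 1, each higher, as were 12.9% and 9.89% of all genes). The median log2 fold change of the sterol enzymes was 0.29 with median-of-ratios scaling. That of the regulators was -0.0269 with a filter at a mean of 1 FPKM, which removed INSIG1, and 0.0196 to 0.33 without single libraries. That of the fatty acid enzymes was 0.11 with median-of-ratios scaling, 0.0808 with quantile normalization, 0.0763 with array weights, and -0.0479 to 0.0969 without single libraries. The causes were not tested.

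Reversed members were, with median-of-ratios scaling, MVK (0.0737), ACLY (0.10), ACACA (0.0495), FASN (0.11) and ELOVL6 (0.0489); with quantile normalization, MVK (0.11), LSS (0.0033), ACLY (0.014), ACACA (0.0866) and ELOVL6 (0.075); and with array weights, MVK (0.13), PMVK (0.026), LSS (0.0351), NSDHL (0.0547), SREBF1 (0.18), ACLY (0.0872), ACACA (0.0447) and FASN (0.0653). Without single libraries the log2 fold change ran from -0.11 to 0.26 for ACAT2, -0.22 to 0.14 for MVK, -0.33 to 0.0696 for PMVK, -0.32 to 0.0761 for LSS, -0.0699 to 0.15 for CYP51A1, -0.12 to 0.20 for TM7SF2, -0.35 to 0.11 for NSDHL, -0.0434 to 0.23 for SC5D, -0.58 to 0.29 for SREBF1, -0.0725 to 0.37 for SREBF2, -0.0981 to 0.0976 for ACLY, -0.14 to 0.0536 for ACACA, -0.13 to 0.0962 for FASN and -0.14 to 0.0686 for ELOVL6. Leaving out EFTUD2 replicate 3 reversed 10 of these, MVK, PMVK, LSS, NSDHL, SC5D, SREBF1, SREBF2, ACLY, ACACA and FASN.

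Libraries with the same replicate number did not deviate together (correlations of -0.30, 0.35 and -0.09), so the numbers were not taken to pair the libraries. The replicate block left the number of members called at 0. Depth is unknown, so low genes such as INSIG1, given in steps of 0.01 FPKM, are given without a counting error.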

Other observations

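Among 11 genes of glycerolipid synthesis and storage, 6 were higher and 5 lower in the EFTUD2 group (median log2 fold change 0.003). MGLL, the monoglyceride lipase, was at 0.01, 0.01 and 0.00 FPKM in the controls against 0.75, 1.60 and 0.07 FPKM in the EFTUD2 libraries, without overlap (adjusted p = 0.402, limma). Of 8 LXR targets and receptors 2 were higher (median -0.15), but 5 of 8 were without EFTUD2 replicate 3 (median 0.0365). ABCG1, a sterol exporter, was at 0.03, 0.02 and 0.02 FPKM in the controls against 0.49, 1.14 and 0.07 FPKM in the EFTUD2 libraries. ABCA1, the exporter that loads lipid-poor particles, was at 13.5, 14.3 and 13.3 FPKM against 12.1, 12.6 and 12.4 FPKM, without overlap (log2 fold change -0.14, adjusted p = 0.508, limma). MGLL and ABCG1, like INSIG1, ME1 and VIM, had control means below 0.1 FPKM and passed the filter only through their EFTUD2 libraries. MGLL and ABCG1 were named because their groups did not overlap, so their values are no separate evidence of a shared pattern. Their order within the EFTUD2 group was that of INSIG1, ME1 and VIM. Within that group 57.9% of all genes were lowest in replicate 3.

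Of 16 tested genes of fatty acid oxidation and ketogenesis, 10 were higher (median 0.11), and 8 of 16 were without EFTUD2 replicate 3 (median 0.018). CPT1A, the carnitine transferase that admits fatty acids to mitochondria, was at 5.80, 7.90 and 7.94 FPKM in the controls against 14.0, 15.1 and 8.75 FPKM in the EFTUD2 libraries (log2 fold change 0.71, SE 0.22, adjusted p = 0.402, limma). ACADVL, a dehydrogenase of long acyl chains, was at 107.6, 78.2 and 93.7 FPKM against 109.0, 116.9 and 116.3 FPKM (log2 fold change 0.30, adjusted p = 0.407, limma). Of 11 genes of sterol uptake and transport 5 were higher and 6 lower (median -0.04), 7 and 4 with median-of-ratios scaling. None was without overlap, against 7.92% of all genes higher and 19.4% lower.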
